A study of Mus musculus with 8 samples.

Results

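Gene expression was compared between 2 of the 7 populations of mouse bone marrow mesenchymal stem and progenitor cells (MSCs) that had been sorted by surface proteins, cluster 2 and cluster 6, with 1 RNA-seq library each. Of 49315 Ensembl genes with deposited counts, the 10423 genes described had RPKM (reads per kilobase of exon length, scaled to the size of the library) above 2 and at least 50 counts in the same library, in cluster 2, cluster 6 or both. The labels give bone marrow of C57BL/6J wild type mice at 6 weeks for all libraries and name no treatment or transgene for them, whereas the methods of the study name the substrain C57BL/6JJcl and a wider range of ages. The labels and the written methods give no gate per cluster, and the gates named here were read from the flow cytometry plots of the study, which makes them uncertain. As read there, cluster 2 was negative for the lineage proteins CD31, CD45 and Ter119, for Ly-6C, CD39 and CD24, and cluster 6 was lineage-negative, CD24-positive, Sca-1-negative and CD39-negative. The extraction text of the labels describes crushed marrow in place of sorted cells, and the number of mice behind each library is not given in the sources used here. With 1 library per population no test between the populations was possible, so differences are given as ratios, and the 95% intervals beside some of them are exact binomial intervals of the 2 counts, which cover counting error only.

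Osteoblasts form from stromal progenitors under the transcription factors Runx2 and Sp7 (osterix), secrete a matrix of type I collagen and acidic proteins such as Ibsp (bone sialoprotein), and mineralise it with the alkaline phosphatase Alpl. Osteoblasts that are buried in this matrix become osteocytes and express Dmp1 and Phex. Chondrocytes of the growth plate secrete type II collagen and aggrecan, and as they enlarge and mature they express Ihh (Indian hedgehog) and type X collagen (Col10a1), whereas the fibroblasts of tendon and of the connective tissue around bone express Scx, Tnmd and small leucine-rich proteoglycans.

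Of the genes of bone matrix 12 of 16 and of mineralisation 8 of 12 were over 2-fold higher in cluster 6, 13 of 26 genes of tendon and other fibroblasts were over 2-fold higher in cluster 2 and 5 in cluster 6, blood cell genes went both ways, and both libraries held cartilage genes far above the levels in most of the other 5 sorted libraries. In all, 869 of the 10423 genes (8.34%) had a ratio of RPKM + 1 above 2-fold in favour of cluster 6 and 847 (8.13%) in favour of cluster 2, and these shares are the background for every list below. The other 8707 genes, 83.5%, were within 2-fold. Ratios are given as log2 of cluster 6 over cluster 2, so that negative values mean a higher level in cluster 2, and the median over all genes described was 0.13. At the threshold on the cluster 6 side, Ncoa4 (RPKM 7.36 in cluster 2 and 15.7 in cluster 6) lay just inside and Rgs3 (3.80 and 8.59) just outside. On the cluster 2 side, Morn2 (16.2 and 7.60) lay just inside and Efcab1 (17.8 and 8.42) just outside. Across the genes past the same filter in any of the 7 sorted libraries, Pearson's r of log2(RPKM + 1) between cluster 2 and cluster 6 was 0.910, which describes these 2 libraries across genes that are not independent of each other. For cluster 6, that was the highest r with any of the other 6 sorted libraries, and its lowest was 0.821, with cluster 1, whereas cluster 2 had an r of 0.911 with cluster 5. By the share of genes past 2-fold, 16.5% between cluster 2 and cluster 6, cluster 6 was nearer to cluster 7 (14.97%) and cluster 2 nearer to cluster 5 (12.4%).

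The balance between both directions depended on how the libraries were scaled. The deposited counts summed to 25349917 in cluster 2 and 31669132 in cluster 6. Left out were Lars2, Rn18s-rs5 and mmu-mir-689-2, loci that took 10.4% of the reads of cluster 2 and 1.41% of those of cluster 6, and without these 3 the totals were 22719265 and 31223321. Of these, the 3 collagen genes Col1a1, Col1a2 and Col2a1 alone took 10.8% in cluster 2 (95% Wilson interval 10.8% to 10.8%) and 24.7% in cluster 6 (24.7% to 24.7%). The TMM factors, by which edgeR corrects for such composition, were 1.10 for cluster 2 and 0.772 for cluster 6, and 50.6% of the calls past 2-fold were then higher in cluster 6. Scaled by the total count instead, the median ratio of all genes described shifted by -0.48, 248 genes (2.42%) were past 2-fold in favour of cluster 6 and 1931 (18.9%) in favour of cluster 2, and 11.4% of the calls were higher in cluster 6. Under that scaling the medians of the bone matrix, mineralisation, osteocyte, neutrophil, fibroblast, smooth muscle and erythroid lists kept their sign, but lists with small positive medians (cartilage, collagens, Wnt, BMP, hypoxia, cell cycle) turned negative, so small ratios below are read against the median of all genes.

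**Figure D1:**
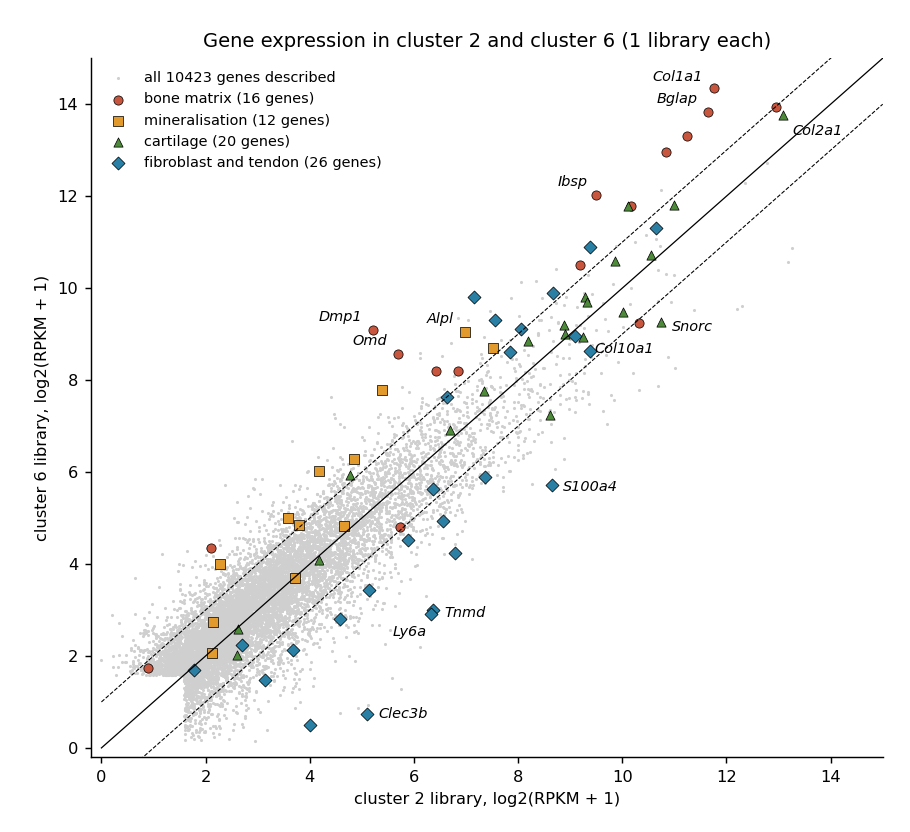
Each point is 1 of the 10423 genes described, with log2(RPKM + 1) in the cluster 2 library on the x axis and in the cluster 6 library on the y axis. The solid line marks equal values and the dashed lines 2-fold. Bone matrix genes (red circles) lie mostly above the upper dashed line, 13 of 26 fibroblast and tendon genes (blue diamonds) below the lower one and 5 above the upper, and cartilage genes (green triangles) mostly between them at high levels in both libraries.

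Of the 4 marker genes set for this comparison, Alpl and Ibsp separated the libraries and Runx2 and Cd24a did not. Alpl (chr4:137741733-137796384 in GRCm38), the alkaline phosphatase of bone, had an RPKM of 125 in cluster 2 and 531 in cluster 6, 4.25-fold (95% interval 4.17 to 4.34) higher in cluster 6, and the lowest, median and highest RPKM of the other 5 sorted libraries were 24.2, 85.2 and 99.03. For Ibsp (chr5:104299171-104311469), which binds collagen and mineral, RPKM was 722 in cluster 2 and 4195 in cluster 6, or 5.81-fold (95% interval 5.75 to 5.87) higher, against 179.9, 463 and 737 in the other 5. Both genes were thus highest in cluster 6 of all 7 sorted libraries, and Ibsp in cluster 2 lay inside the range of the other 5. Runx2 (chr17:44495987-44814797), the transcription factor that starts the osteoblast programme, stood at RPKM 11.2 in cluster 2 and 10.8 in cluster 6, giving a log2 ratio of -0.042 with an interval of the ratio from 0.915 to 1.03, and both values were above the other 5 libraries (1.87 to 6.08). Cd24a (chr10:43578284-43584265), which encodes the CD24 protein of the gates, had RPKM 127 in cluster 2 and 180.1 in cluster 6 and a log2 ratio of 0.50, where the plots read as CD24-negative for cluster 2 and CD24-positive for cluster 6. Its level in cluster 2 was above that of each of the other 5 libraries (50.9 to 108).

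**Figure D2:**
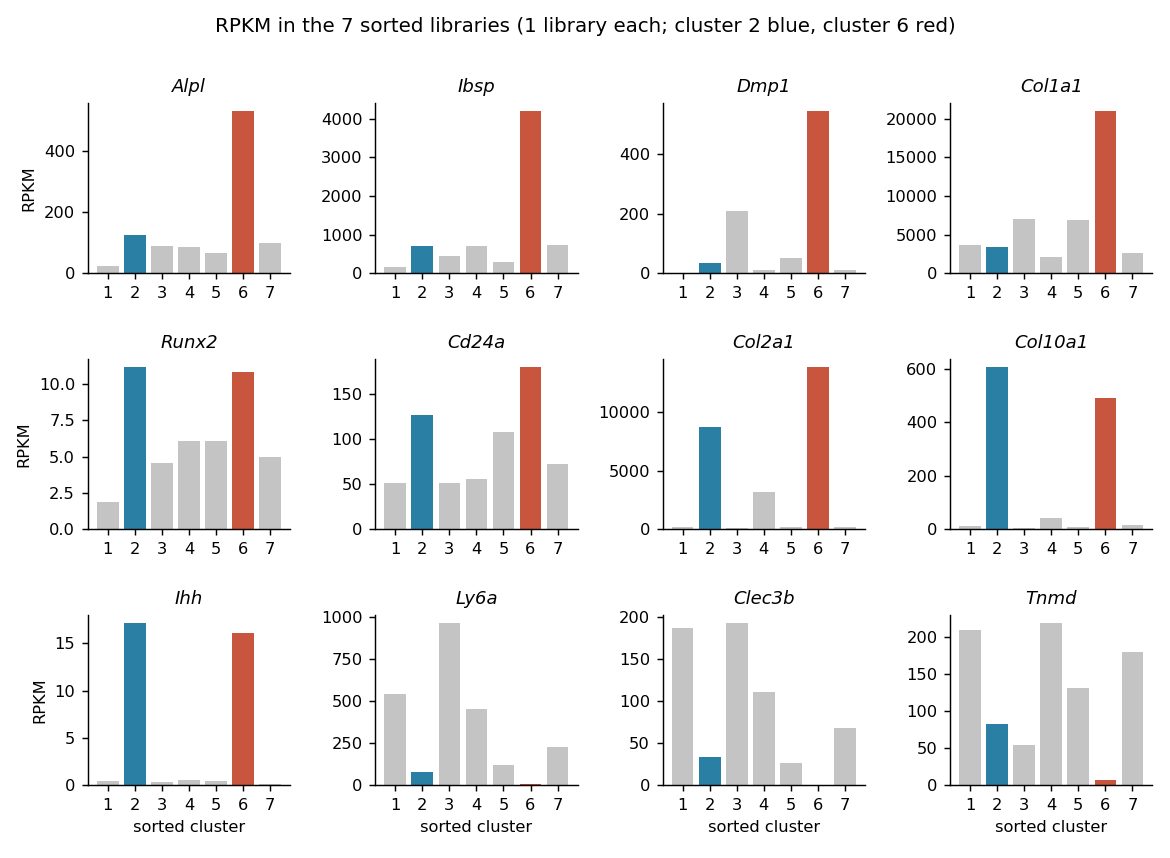
RPKM of 12 genes (y axes, from 0) in the 7 sorted libraries (x axes), 1 library each, with cluster 2 in blue, cluster 6 in red and the other 5 in grey. Alpl, Ibsp, Dmp1 and Col1a1 stand highest in cluster 6, Runx2, Col2a1, Col10a1 and Ihh are high in both libraries, and Ly6a, Clec3b and Tnmd are lowest in cluster 6.

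Of the other genes behind the gates, Ly6a differed most. Over the whole list of sort markers, 10 passed the filter, of which 3 were over 2-fold higher in cluster 2 and 1 in cluster 6. By the total count, these numbers were 3 and 0. Ly6a, which encodes Sca-1, the protein absent from cluster 6 by the gate as read, had RPKM 79.1 in cluster 2 and 6.54 in cluster 6, 12.1-fold (95% interval 10.4 to 14.1) higher in cluster 2, and both libraries were below the other 5 (119.6 to 967). Ly6c1, one of the pair of genes for Ly-6C, had RPKM 33.2 in cluster 2 and 8.46 in cluster 6 with a log2 ratio of -1.86, where cluster 2 was read as the Ly-6C-negative population. Its neighbour Ly6c2 had 51.5 in cluster 2 and 79.01 in cluster 6 (0.61). These 2 genes are near-identical copies, and how reads shared between them were counted is not given in the sources used here. Entpd1, which encodes CD39, was low in both libraries, with RPKM 3.13 and 5.93. Of the lineage genes, Ptprc (CD45) had RPKM 2.60 and 5.28 and Pecam1 (CD31) 1.93 and 1.73 in cluster 2 and cluster 6. Pdgfra encodes the receptor that, together with Sca-1, defined the parent population of the study. Its RPKM was 4.42 in cluster 2 and 9.78 in cluster 6, both below the lowest of the other 5 (10.3). That parent population was Sca-1-positive, whereas cluster 6 was read as Sca-1-negative.

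Of all lists, that of bone matrix genes had the highest median ratio in favour of cluster 6. All 16 members of the list passed the filter. Of these, 12 were over 2-fold higher in cluster 6 and 1, Mgp, in cluster 2, with a median log2 ratio of 1.91. By the total count, 15 members passed, of which 10 were over 2-fold higher in cluster 6 and 2 in cluster 2 (median 1.55). Dmp1 (chr5:104202613-104214102), an acidic matrix protein of osteocytes and mineralising osteoblasts, had the largest log2 ratio in favour of cluster 6 (3.88), with RPKM 36.2 in cluster 2 and 545 in cluster 6 (2510 and 36302 counts), 15.1-fold (95% interval 14.5 to 15.7) higher in cluster 6. The next highest library was cluster 3 with 211, and the remaining 4 had 3.21 to 52.5. Omd (osteomodulin), a small leucine-rich proteoglycan of bone, had RPKM 50.7 in cluster 2 and 377 in cluster 6 (log2 ratio 2.87), against 32.2 to 150.4 in the other 5.

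Both chains of type I collagen, the main protein of bone, followed. Col1a1 (chr11:94936224-94953042) had RPKM 3469 in cluster 2 and 20965 in cluster 6, 6.04-fold (95% interval 6.03 to 6.06) higher, which made it the gene with the highest RPKM of the cluster 6 library. Col1a2 had 1837 in cluster 2 and 7999 in cluster 6, 4.35-fold (95% interval 4.34 to 4.37) higher. The cluster 2 values were within (Col1a1) or below (Col1a2) the range of the other 5 libraries, which was 2073 to 7067 for Col1a1 and 2107 to 5031 for Col1a2, whereas the cluster 6 values were above it. Bglap and Bglap2, the neighbouring osteocalcin genes whose product is secreted by mature osteoblasts, had RPKM 3207 in cluster 2 and 14498 in cluster 6 (log2 ratio 2.18) and 2432 in cluster 2 and 10162 in cluster 6 (2.06). They differ little in sequence, so that their split is uncertain. Cluster 6 was not the only library high in osteocalcin, since Bglap reached 14550.2 in cluster 3 and 7006 in cluster 5 but 201 to 275 in clusters 1, 4 and 7. Spp1 (osteopontin) had RPKM 1156 in cluster 2 and 3524 in cluster 6 (1.61) and Sparc (osteonectin), a collagen-binding glycoprotein, 7927 in cluster 2 and 15618 in cluster 6 (0.98). Mgp, an inhibitor of calcification, was the exception, with 1272 in cluster 2 and 601 in cluster 6 (-1.08), and Postn (periostin) had 52.3 in cluster 2 and 27.2 in cluster 6 (-0.92).

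The windows before the start sites of 3 of these genes are shown because Runx2 is known to act through the letters ACCACA (or TGTGGT on the other strand) in front of osteoblast genes, while the Runx2 transcript itself was level between the libraries. Each run is the 200 bases before a RefSeq start site in GRCm38.p6, 5′ to 3′ on the strand of the gene, with matches to these letters in capitals. For Bglap the window is chr3:88384467-88384666 on the minus strand, for Spp1 chr5:104434911-104435110 on the plus strand, the first of its 2 start sites, and for Dmp1 chr5:104202417-104202616 on the plus strand, the second of its 2.
Bglap: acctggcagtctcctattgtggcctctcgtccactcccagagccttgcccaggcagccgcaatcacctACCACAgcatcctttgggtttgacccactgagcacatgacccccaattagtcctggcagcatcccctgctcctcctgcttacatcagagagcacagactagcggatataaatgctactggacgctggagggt
Spp1: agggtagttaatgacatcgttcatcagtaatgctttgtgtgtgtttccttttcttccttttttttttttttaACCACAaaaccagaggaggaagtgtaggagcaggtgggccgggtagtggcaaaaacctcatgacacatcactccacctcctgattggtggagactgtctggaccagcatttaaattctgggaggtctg
Dmp1: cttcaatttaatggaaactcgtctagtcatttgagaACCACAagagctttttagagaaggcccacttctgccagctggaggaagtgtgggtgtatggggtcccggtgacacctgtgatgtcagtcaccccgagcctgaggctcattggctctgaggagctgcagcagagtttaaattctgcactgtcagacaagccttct
The match began 132 bases before the start site of Bglap, 128 before that of Spp1 and 164 before that of Dmp1. The windows of the other start site of Spp1, of the other start site of Dmp1 and of Ibsp held none. Over the 250 bases before each start site and on both strands, 14.0% of 32851 mouse promoters in the RefSeq table held the letters, 10.7% of the 10059 promoters of genes described here, 12.1% of the 829 promoters of genes over 2-fold higher in cluster 6 and 12.0% of the 532 promoters of genes over 2-fold higher in cluster 2. Of the 28 promoters of the bone matrix and mineralisation lists, 6 held them. A match describes the sequence only. Col1a1 and Bglap2 were not among the genes with a promoter in the table.

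Mineralisation genes followed the matrix genes. Of 12 members, 8 were over 2-fold higher in cluster 6 and 0 in cluster 2 (median 1.30). With scaling by the total count, 4 of the 12 were over 2-fold higher in cluster 6. Besides Alpl these included Ifitm5, a membrane protein of osteoblasts, with RPKM 41.1 in cluster 2 and 220.5 in cluster 6 (2.40), and Phex, an endopeptidase by which osteocytes control phosphate, with 3.83 in cluster 2 and 15.1 in cluster 6 (1.74). Smpd3, a sphingomyelinase needed for mineralisation, had RPKM 182 in cluster 2 and 413 in cluster 6 (1.18), both above the other 5 libraries (5.52 to 55.6). The pyrophosphate genes Ank, a transporter, and Enpp1, an enzyme that makes pyrophosphate, had 28 in cluster 2 and 76.7 in cluster 6 (1.42) and 12.9 in cluster 2 and 27.9 in cluster 6 (1.06). The phosphate transporters Slc20a1 and Slc20a2 were within 2-fold, with log2 ratios of 0.17 and -0.054.

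Among osteocyte genes, 9 of 12 passed the filter, 5 of which were over 2-fold higher in cluster 6 and 0 in cluster 2 (median 1.40). A pseudocount of 5 left 3 of the 9 past 2-fold, with a median of 0.70. Apart from Dmp1 and Phex the 5 were Tnfrsf11b (osteoprotegerin, the decoy receptor of RANKL), with RPKM 24.3 in cluster 2 and 126 in cluster 6 (2.32), Dkk1, an inhibitor of Wnt signalling, with 2.54 in cluster 2 and 8.58 in cluster 6 (1.44), and Ptprz1, a receptor tyrosine phosphatase, with 1.46 in cluster 2 and 5.48 in cluster 6 (1.40). The genes that mark mature osteocytes were low: RPKM of Sost (sclerostin) was 0.0579 and 0.301, that of Fgf23 0 and 0.1601 and that of Mepe 0.853 and 2.34 in cluster 2 and cluster 6. The osteocyte gene Pdpn was level, with 15.9 and 16.9.

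Osteoblast transcription factors had smaller ratios than the matrix genes. Of 9 that passed the filter, 3 were over 2-fold higher in cluster 6 and 0 in cluster 2 (median 0.50). By the total count, these numbers were 2 and 1 and the median was 0.031. Dlx3, a homeobox factor of the osteoblast lineage, had RPKM 4.34 in cluster 2 and 16.9 in cluster 6 (1.74) and Sp7 21.9 in cluster 2 and 50.7 in cluster 6 (1.18). Sp7 was above the other 5 libraries in both populations (2.08 to 21.6), by little in cluster 2. Cbfb, the partner of Runx2, had 33.9 in cluster 2 and 51.6 in cluster 6 (0.59), and Twist1, a repressor of Runx2 activity, 22.02 in cluster 2 and 17.6 in cluster 6 (-0.30).

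The enzymes that process collagen were higher in cluster 6 for 7 of 22 members past 2-fold, against 1 in cluster 2 (median 0.82). By the total count, these numbers were 3 and 1. Lox, which crosslinks collagen, had RPKM 53.4 in cluster 2 and 230.0 in cluster 6 (2.09), Bmp1, the procollagen C-proteinase, 44.1 in cluster 2 and 145 in cluster 6 (1.70) and Creb3l1, a transcription factor of the secretory pathway that acts on Col1a1, 31.2 in cluster 2 and 107 in cluster 6 (1.74). Serpinh1, the collagen chaperone and the most abundant member in both, was within 2-fold (1212 in cluster 2 and 2056 in cluster 6, 0.76). The prolyl hydroxylase subunit P4ha3 stood opposite, with 12.4 in cluster 2 and 2.74 in cluster 6 (-1.84), while P4ha1 (0.97) and P4ha2 (0.88) were higher in cluster 6 without reaching 2-fold.

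Collagen genes stood on both sides. Of 23, 8 were over 2-fold higher in cluster 6 and 5 in cluster 2. By the total count, 6 were past 2-fold on each side. The former included Col22a1 with RPKM 6.68 in cluster 2 and 56.2 in cluster 6 (2.90), Col24a1, a fibrillar collagen of bone, with 3.87 in cluster 2 and 20.2 in cluster 6 (2.12), Col5a2 with 85.2 in cluster 2 and 292 in cluster 6 (1.76) and Col11a2 with 581 in cluster 2 and 1457 in cluster 6 (1.32). The latter were Col14a1 with 11.7 in cluster 2 and 1.46 in cluster 6 (-2.37), Col8a1 with 40.6 in cluster 2 and 7.16 in cluster 6 (-2.35), Col5a3 (-1.73), Col18a1 (-1.44) and the basement membrane collagen Col4a1 (-1.09). These 5 were also lower in both libraries than in each of the other 5. Col3a1, the collagen of loose connective tissue, had 664 in cluster 2 and 397 in cluster 6 (-0.74), against 1005 to 3167 elsewhere.

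**Figure D3:**
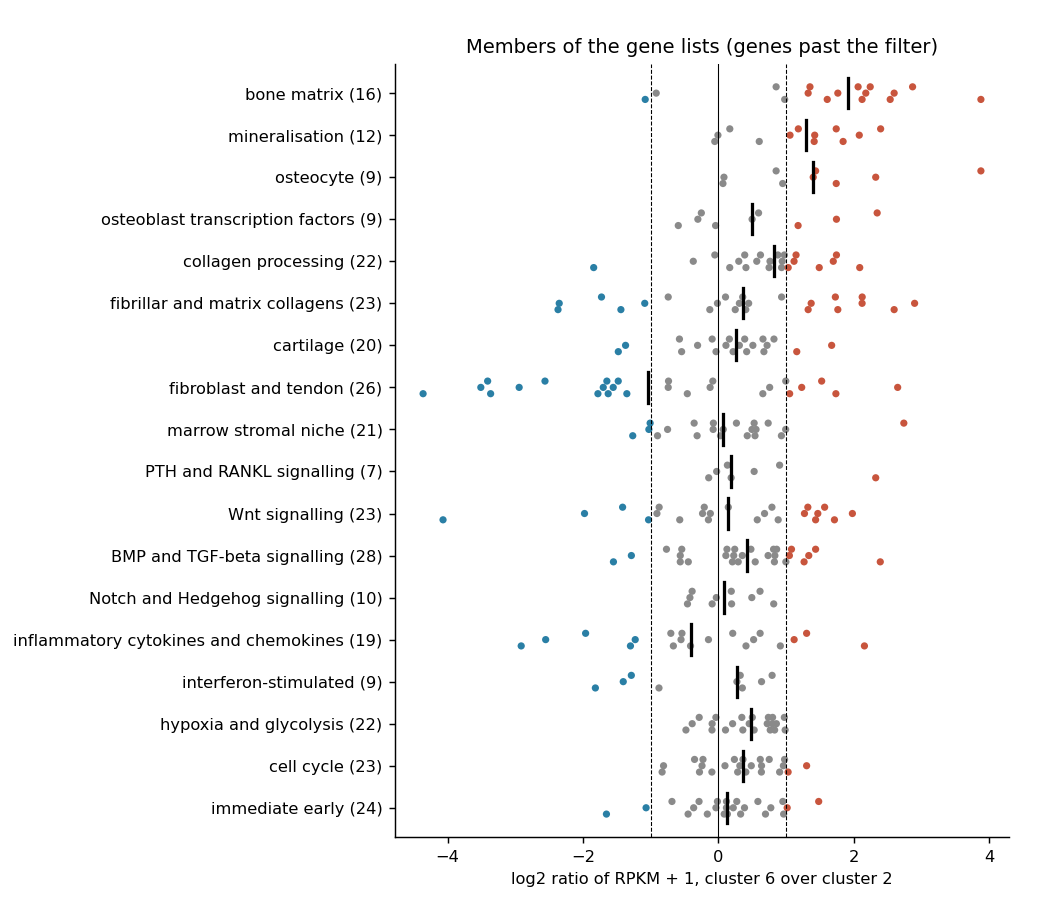
Log2 ratio of RPKM + 1 (cluster 6 over cluster 2, x axis) of the members of 18 gene lists that passed the filter, with their number in brackets. Points past 2-fold (dashed lines) are red where higher in cluster 6 and blue where higher in cluster 2, and black bars are medians. Bone matrix and mineralisation lie to the right with medians of 1.91 and 1.30, and fibroblast and tendon to the left with -1.05.

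Cartilage genes were high in both libraries and mostly did not separate them. Of 20 members, 2 were over 2-fold higher in cluster 6, 2 in cluster 2, and the median was 0.26, against 0.13 for all genes. Col2a1 (chr15:97975602-98004695), type II collagen, had RPKM 8697 in cluster 2 and 13853 in cluster 6 (0.67) and was the protein-coding gene with the highest RPKM of the cluster 2 library, below only 2 loci named mmu-mir-2134-4 of 57 bases each with 14060 and 13310 counts. In the other 5 it was 3218 in cluster 4 and 139 to 209 in the rest. Acan (aggrecan) had 290.1 in cluster 2 and 458 in cluster 6 against at most 52.5, Matn1 (matrilin 1) 102 in cluster 2 and 119 in cluster 6 against at most 3.96, and Hapln1, the link protein of aggrecan, 475 in cluster 2 and 513 in cluster 6 against at most 38.5. The genes of maturing growth plate chondrocytes stood apart in the same way. Col10a1 had 607 in cluster 2 and 489.8 in cluster 6 against 4.49 to 41.2, and Ihh 17.2 in cluster 2 and 16.1 in cluster 6 against 0.147 to 0.532.

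In all, 178 of the 8667 genes that passed the filter in both libraries (2.05%) were over 2-fold above each of the other 5 in cluster 2 and cluster 6 alike. They held 15 of the 20 cartilage genes and 1 of the 16 bone matrix genes, Col11a2, which cartilage also expresses. Others among them were Panx3, a channel protein of osteoblasts and hypertrophic chondrocytes, with RPKM 91.3 in cluster 2 and 198 in cluster 6 against at most 3.36, and Foxa2, a transcription factor of chondrocyte hypertrophy, with 7.30 in cluster 2 and 4.18 in cluster 6 against at most 0.159. Pth1r, the receptor for parathyroid hormone and its related peptide, had 406 in cluster 2 and 462 in cluster 6 against 19.99 to 67.01. The cartilage genes that did differ went both ways. Chad (chondroadherin) and the receptor Fgfr3 were higher in cluster 6, with 1108 in cluster 2 and 3532 in cluster 6 (1.67) and 26.4 in cluster 2 and 60.1 in cluster 6 (1.16). Snorc, a chondrocyte membrane proteoglycan, and Ucma, a matrix protein of resting cartilage, were higher in cluster 2, with 1722 in cluster 2 and 617 in cluster 6 (-1.48) and 388 in cluster 2 and 149 in cluster 6 (-1.37). Relative to genes of like exon length, as given below, Snorc was at -0.64, Ucma at -0.75 and Fgfr3 at 0.84, all inside 2-fold. The cartilage list then had 1 member past 2-fold in cluster 6 and 0 in cluster 2. By the total count, these numbers were 1 and 3.

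More genes of fibroblasts and tendon were past 2-fold on the cluster 2 side than on the other. Of 26 members, 13 were over 2-fold higher in cluster 2 and 5 in cluster 6, with a median of -1.05 (15, 3 and -1.55 by the total count). Among the 19 of them with an exon length of at least 2000 bases, 6 were over 2-fold higher in cluster 2 and 5 in cluster 6, with a median of -0.12. Clec3b (tetranectin; chr9:123150946-123157432) had RPKM 33.3 in cluster 2 and 0.669 in cluster 6 (830 and 16 counts), 49.8-fold (95% interval 30.5 to 87.5) higher in cluster 2. Mfap5, a protein of elastic microfibrils, had 15.1 in cluster 2 and 0.416 in cluster 6 (-3.51). The tendon genes Tnmd (tenomodulin) and Scx (scleraxis, the tendon transcription factor) had 81.7 in cluster 2 and 7.02 in cluster 6 (-3.36) and 34.1 in cluster 2 and 9.79 in cluster 6 (-1.70). Aspn (asporin) had 110.1 in cluster 2 and 17.8 in cluster 6 (-2.56) and S100a4, a calcium-binding protein of fibroblasts, 402 in cluster 2 and 51.4 in cluster 6 (-2.94).

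Cluster 2 was nevertheless not a library rich in these genes. Its levels of Mfap5, Aspn, Dpt and Cd34 were below the lowest of the other 5, those of Clec3b, Tnmd, Scx and S100a4 were within their range, and the cluster 6 levels of all 8 were below it. The summed RPKM of the list was 5998 in cluster 2 and 9196 in cluster 6, against 8159.6 to 23464 elsewhere, with Dcn (decorin) the most abundant member of both. Several abundant matrix members were higher in cluster 6: Cilp, a cartilage and tendon matrix protein, with 141 in cluster 2 and 889.9 in cluster 6 (2.65), Fn1 (fibronectin) with 188 in cluster 2 and 628 in cluster 6 (1.73), Fmod (fibromodulin) with 663 in cluster 2 and 1909 in cluster 6 (1.52), Lum (lumican) with 404 in cluster 2 and 949.7 in cluster 6 (1.23) and Prelp with 266 in cluster 2 and 553 in cluster 6 (1.05). The list therefore held genes on both sides. In such bulk libraries, fewer cells of a type and less RNA per cell cannot be told apart.

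Beyond the lists, the 15 genes with the largest ratios in each direction were of several kinds. On the cluster 2 side the largest was Mfap4, a microfibril protein, with RPKM 53.2 in cluster 2 and 1.45 in cluster 6 (2567 and 67 counts), 36.8-fold (95% interval 28.9 to 47.6) higher. Ostn (osteocrin, a secreted peptide of bone and muscle) had 29.6 in cluster 2 and 0.817 in cluster 6 (-4.07), Kera (keratocan, a proteoglycan) 68.2 in cluster 2 and 3.60 in cluster 6 (-3.91), Apod (apolipoprotein D) 42.5 in cluster 2 and 3.77 in cluster 6 (-3.19) and Cygb (cytoglobin) 12.2 in cluster 2 and 0.837 in cluster 6 (-2.84). Ostn was higher in cluster 2 than in any of the other 5 libraries, whose highest was 23.03, while Mfap4, Kera, Apod and Cygb reached more elsewhere. The others of the 15 were Clec3b, Sfrp2, Gpha2, Mfap5, Ly6a, Tnmd, Ccn3, S100a4, Ccl7 and a copy of the small nuclear RNA U6 with 76 and 7 counts.

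On the cluster 6 side Dmp1 was followed by Entpd3, an ectonucleotidase, with RPKM 4.15 in cluster 2 and 51.6 in cluster 6 (3.35), Cpz, a secreted carboxypeptidase, with 20.2 in cluster 2 and 198 in cluster 6 (3.23), and Casr, the calcium-sensing receptor, with 1.23 in cluster 2 and 17.6 in cluster 6 (3.06). Prss35, of the trypsin family, had 11.6 in cluster 2 and 101 in cluster 6 (3.02). Gdf6, a ligand of the BMP family, had 13 counts in cluster 2 and 551 in cluster 6, an RPKM of 0.147 in cluster 2 and 6.47 in cluster 6, or 44.1-fold (95% interval 25.6 to 83.4) higher, and at most 0.625 in the other 5. Among the others were Col22a1, Omd, Slc36a2, Ccdc194, Agt, S1pr3, Cdo1 and Lipc, with log2 ratios from 2.68 to 2.90. All 15 were highest in cluster 6 of the 7 sorted libraries.

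Among Wnt genes, the largest ratios on both sides belonged to secreted inhibitors. The Wnt list had 23 of 34 members past the filter, 7 over 2-fold higher in cluster 6 and 4 in cluster 2 (median 0.15). Scaled by the total count, 4 were higher in cluster 6 and 6 in cluster 2. Sfrp2 and Sfrp4, secreted proteins that bind Wnt ligands, were higher in cluster 2 with RPKM 46.8 in cluster 2 and 1.85 in cluster 6 (-4.07) and 91.96 in cluster 2 and 22.6 in cluster 6 (-1.98), as was Dkk2 (2.35 in cluster 2 and 0.258 in cluster 6, -1.42). Wif1, another secreted inhibitor, was higher in cluster 6 with 91.96 in cluster 2 and 365 in cluster 6 (1.98), as was Dkk1. Of the ligands, Wnt5b had 13.5 in cluster 2 and 35.2 in cluster 6 (1.32) and Wnt4 18.7 in cluster 2 and 9.72 in cluster 6 (-0.88). The agonist Rspo3 had 10.5 in cluster 2 and 4.62 in cluster 6 (-1.03) and its receptor Lgr6 3.52 in cluster 2 and 13.8 in cluster 6 (1.71). Of targets, the transcription factor Tcf7 had 5.31 in cluster 2 and 16.5 in cluster 6 (1.47), and Axin2 was under the filter in both (0.405 and 0.196).

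Of 28 BMP and TGF-beta genes past the filter, 6 were over 2-fold higher in cluster 6 and 2 in cluster 2 (median 0.42). Scaled by the total count, 1 was higher in cluster 6 and 5 in cluster 2. The ligands past 2-fold stood on the cluster 6 side: Bmp3, a BMP antagonist made by osteoblasts, with RPKM 1.77 in cluster 2 and 13.5 in cluster 6 (2.39), Bmp2 with 25.8 in cluster 2 and 71.4 in cluster 6 (1.43), Bmp8a with 8.35 in cluster 2 and 21.5 in cluster 6 (1.26) and Bmp6 with 10.7 in cluster 2 and 23.2 in cluster 6 (1.05). The follistatins Fst and Fstl1, which bind activins and BMPs, stood on the cluster 2 side with 9.73 in cluster 2 and 2.66 in cluster 6 (-1.55) and 59.7 in cluster 2 and 23.9 in cluster 6 (-1.29), both below the other 5 libraries. The receptors Bmpr1a (0.29) and Tgfbr3 (0.13) and the target Id2 (0.11) were within 2-fold.

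Of the PTH and RANKL genes, 7 passed the filter and 1, Tnfrsf11b, was over 2-fold higher in cluster 6. Its ligand partner Tnfsf11 (RANKL) was low in both, with 2.98 and 2.60, and Pth1r was level (0.19). No member of the Notch and Hedgehog list was past 2-fold among the 10 that passed the filter. Ptch1, receptor and target of hedgehog signalling, had RPKM 7.89 in cluster 2 and 5.47 in cluster 6, against 0.916 to 2.77 in the other 5.

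Cxcl12, the chemokine that retains haematopoietic stem cells, had RPKM 11.8 in cluster 2 and 6.63 in cluster 6, against 12.1 to 147 in the other 5, and Kitl 1.56 in cluster 2 and 1.29 in cluster 6 against 2.82 to 5.05. Of 21 niche genes past the filter, 1, Agt (angiotensinogen), was over 2-fold higher in cluster 6 with 6.53 in cluster 2 and 49.2 in cluster 6 and 3 (Lpl, Gas6 and Esm1) were higher in cluster 2, which became 1 and 5 by the total count and 1 and 0 with a pseudocount of 5. Lepr, the leptin receptor of marrow stromal cells, had 2.61 in cluster 2 and 4.30 in cluster 6 (0.56). Adipoq (adiponectin) was below the filter with 1.67 and 0.601.

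Of 19 inflammatory genes, a list of cytokines, chemokines and genes they induce, 5 were over 2-fold higher in cluster 2 and 3 in cluster 6. By the total count, 7 were higher in cluster 2 and 1 in cluster 6. Among the 7 inflammatory genes with an exon length of at least 2000 bases, 1 was over 2-fold higher in cluster 2 and 2 in cluster 6. Their median was 0.52, in place of -0.41 for the list. Ccl7 and Ccl2, which attract monocytes, had RPKM 73.7 in cluster 2 and 8.91 in cluster 6 (-2.91) and 48.5 in cluster 2 and 7.44 in cluster 6 (-2.55), and Cxcl1, which attracts neutrophils, 88.99 in cluster 2 and 37.4 in cluster 6 (-1.23). Both libraries were below the other 5 for all 3 genes, whose lowest values were 126, 118 and 316. Ptgs2 (cyclooxygenase 2) was higher in cluster 6 with 16.9 in cluster 2 and 78.9 in cluster 6 (2.16). Of 9 interferon-stimulated genes past the filter, 3 were over 2-fold higher in cluster 2 (Isg15 -1.82, Rsad2 -1.41 and Bst2 -1.29), none in cluster 6, and the median was 0.27 (-1.29 over the 5 genes with RPKM above 5).

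Transcripts of blood cells were present in both libraries although the sort selected lineage-negative cells, and they differed in kind. All 19 neutrophil genes passed the filter, of which 10 were over 2-fold higher in cluster 6 and 0 in cluster 2 (median 1.27). By the total count, 7 were higher in cluster 6 and 1 in cluster 2. Their most abundant genes, S100a9 and S100a8, were nevertheless level, with RPKM 7028 in cluster 2 and 6752 in cluster 6 for S100a9 and 5227 in cluster 2 and 5022 in cluster 6 for S100a8. Mpo (myeloperoxidase) had 68.8 in cluster 2 and 384 in cluster 6 (2.47), Ltf (lactoferrin) 176 in cluster 2 and 729 in cluster 6 (2.04) and Ngp 1715 in cluster 2 and 4501 in cluster 6 (1.39). The summed RPKM of the list, 17696 and 22181, lay inside the range of the other 5 libraries (12101 to 38458), and 0 of its genes were at 0 counts in either library. Of 10 macrophage genes past the filter, 5 were over 2-fold higher in cluster 6 and 0 in cluster 2, with Lyz2 the most abundant (946 in cluster 2 and 1927 in cluster 6) and Csf1r, the receptor that defines the lineage, at 1.83 in cluster 2 and 7.29 in cluster 6 (1.55). Scaled by the total count, 1 macrophage gene was past 2-fold on each side.

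Erythroid genes past 2-fold were higher in cluster 2, 7 of 13 past 2-fold and 0 in cluster 6 (median -1.14). With the haemoglobin and mitochondrial genes left out, 3 of 9 were past 2-fold and the median was -0.14. The most abundant, Hba-a1, had RPKM 5005 in cluster 2 and 779 in cluster 6 (-2.68), and the summed RPKM of the list was 13597 in cluster 2 and 2183 in cluster 6, below the 2451 of the lowest of the other 5. The haemoglobin genes took 1.13% of the counts in cluster 2 and 0.122% in cluster 6. The erythroid regulators Klf1 (1.69 and 2.58) and Gata1 (0.833 and 0.562) were low in both. Platelet genes stood on the same side, with 2 of 5 past 2-fold and Pf4 at 25.9 in cluster 2 and 2.99 in cluster 6 (-2.75).

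Vessel genes were low. Of 17 endothelial genes 5 passed the filter and 4 of these were over 2-fold higher in cluster 2, with summed RPKM 33.4 and 15.5, while the defining markers Pecam1 (1.93 and 1.73) and Cdh5 (1.17 and 0.276) were below 2 in both. With a pseudocount of 5, 0 of the 5 were past 2-fold and the median was -0.61 in place of -1.26. Of 6 pericyte and smooth muscle genes past the filter, 4 were over 2-fold higher in cluster 2, among them Acta2 (smooth muscle actin) with 28.6 in cluster 2 and 6.15 in cluster 6 (-2.05) and Myl9 with 25.5 in cluster 2 and 5.21 in cluster 6 (-2.09), and 0 in cluster 6. A pseudocount of 5 left 2 of the 6 past 2-fold (median -0.65 in place of -1.52), and of the 3 with at least 2000 bases 1 was past 2-fold and the median was 0.16. The defining smooth muscle gene Myh11 was below 1 in both (0.811 and 0.244). Cspg4 (NG2), a pericyte marker that chondrocytes also express, was the most abundant member, at 39.6 in cluster 2 and 56.6 in cluster 6, above the 14.05 of the highest of the other 5.

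The lymphoid lists were alike: 1 of 14 B lineage genes, 1 of 6 plasma cell genes (Xbp1, a secretory pathway factor, 1.15) and 0 of 7 T and NK cell genes were over 2-fold higher in cluster 6, and only Thy1, of the T and NK list, in cluster 2 (-1.59). Osteoclast genes held 1 past 2-fold of 4, Nfatc1 with 48.4 in cluster 2 and 112 in cluster 6 (1.20), while Ctsk (cathepsin K) was level at 146 and 145 and below the other 5 in both. By the total count, and also relative to genes of like exon length, 0 osteoclast genes were past 2-fold. Of the Schwann cell list S100b, also a gene of chondrocytes, had 115 in cluster 2 and 43.99 in cluster 6 (-1.37), and Sox10 was at 1.23 and 1.59. Dendritic cell genes held 1 past 2-fold on each side of 8, mast cell and basophil genes 1 on each side of 5, and haematopoietic progenitor genes 1 of 8, Cd34, on the cluster 2 side. The part of blood and vessel cells in the differences between the libraries was not tested.

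**Figure D4:**
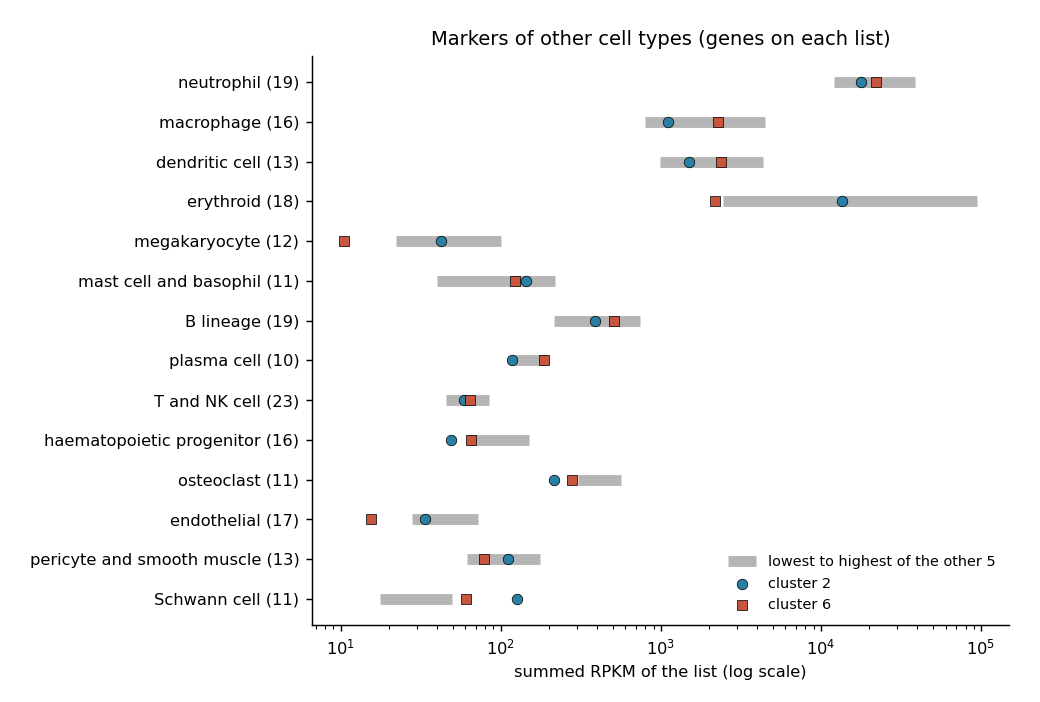
Summed RPKM (x axis, log scale) of the marker lists of 14 other cell types (y axis, with the number of genes), in cluster 2 (blue circles) and cluster 6 (red squares), with grey bars from the lowest to the highest of the other 5 sorted libraries. Cluster 6 lies below the grey bar for the erythroid, megakaryocyte and endothelial lists, cluster 2 for the haematopoietic progenitor list and, by little, the plasma cell list, both libraries lie below it for the osteoclast list, and both libraries lie above it for the Schwann cell list, whose most abundant gene is S100b.

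Cell cycle genes past 2-fold in cluster 6 (8.70%) and immediate early genes on each side (8.33%) were near the shares over all genes, 8.34% and 8.13%. The lists of hypoxia and glycolysis and of antigen presentation had 0 members past 2-fold. Of 23 cell cycle genes 2 (Plk1 and Mcm2) were over 2-fold higher in cluster 6 and 0 in cluster 2 (0 and 2 by the total count), and Mki67, the proliferation marker, had RPKM 8.03 in cluster 2 and 7.45 in cluster 6. No hypoxia or glycolysis gene was past 2-fold among 22, although the median was 0.48, and Hif1a had 44.8 in cluster 2 and 81.8 in cluster 6, both above the other 5 (23.8 to 35.4). Immediate early genes, which respond to handling of cells, were past 2-fold for 2 members higher in cluster 6 and 2 in cluster 2 of 24, and Fos had 1143 in cluster 2 and 1020.2 in cluster 6. Of 12 antigen presentation genes, 0 were past 2-fold.

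The ratio also moved with the exon length of the gene, in the direction of higher levels of short genes in cluster 2. Among 297 genes of up to 500 bases the median log2 ratio was -1.11 and 57.9% were over 2-fold higher in cluster 2, and among 528 genes of over 500 and up to 1000 bases these values were -0.76 and 35.0%. The medians were -0.28 for 1545 genes of over 1000 and up to 2000 bases, 0.077 for 1777 genes of over 2000 and up to 3000 and 0.35 for 2301 genes of over 4000 and up to 6000. Of 8056 genes of at least 2000 bases, 768 (9.53%) were over 2-fold higher in cluster 6 and 286 (3.55%) in cluster 2. Each sorted library was also set against the median of all 7 on the log2 scale. Genes of up to 1000 bases then stood 0.56 above longer genes in cluster 2 and 0.33 below them in cluster 6. Cluster 7 had a lower value still, -0.45. These values cover only genes that passed the filter in cluster 2 or cluster 6. They therefore cannot say how much each library contributed. By the GC content of transcripts, known for 93.0% of the genes described, the medians ran from 0.12 to 0.20 over 5 equal groups.

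**Figure D5:**
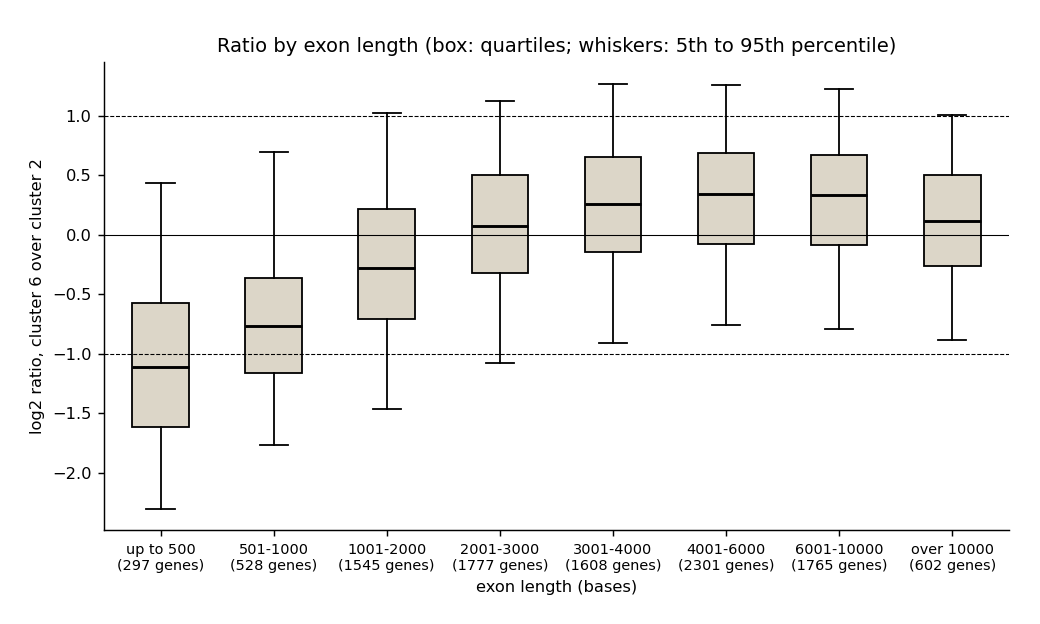
Log2 ratio of RPKM + 1 (cluster 6 over cluster 2, y axis) of the genes described, in 8 classes of exon length (x axis). Boxes span the quartiles with the median as a line, whiskers run from the 5th to the 95th percentile, and dashed lines mark 2-fold. The median climbs from -1.11 for the shortest class to 0.35 for the class of 4000 to 6000 bases.

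The genes for proteins of the cytosolic ribosome, whose list was added after their values had been seen, stood in cluster 2 for 66 of 82 past 2-fold and in cluster 6 for 0 (median -1.32). Among the 30 of them with an exon length of at least 2000 bases, 22 were over 2-fold higher in cluster 2 (median -1.22). They took 2.91% of the counts in cluster 2 and 0.819% in cluster 6. Of the mitochondrially encoded genes 7 of 12 were over 2-fold higher in cluster 2 (median -1.12), and the share of mitochondrial counts was 1.02% against 0.361%. Of 3 long nuclear RNAs past the filter, 2 were over 2-fold higher in cluster 2. Malat1 had RPKM 1278 in cluster 2 and 219 in cluster 6 (-2.54) and Meg3 6.17 in cluster 2 and 1.38 in cluster 6 (-1.59). With a pseudocount of 5, 1 of the 3 was past 2-fold and the median was -0.81 in place of -1.59.

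Set against the median ratio of the genes nearest in exon length, 100 on either side, 584 genes (5.60%) were over 2-fold higher in cluster 6 and 723 (6.94%) in cluster 2, of which 450 and 459 were among the 869 and 847 without this step. The bone matrix list then had 12 members in cluster 6 and 1 in cluster 2, and the fibroblast and tendon list 4 and 13. The mineralisation list had 6 in cluster 6 in place of 8, collagen processing 4 in place of 7, BMP and TGF-beta 3 in place of 6, and neutrophil genes 13 in place of 10. In cluster 2 the mitochondrial genes went from 7 to 0, the ribosomal protein genes from 66 to 49 and the erythroid genes from 7 to 7. Dmp1 was then at 3.67, Col1a1 at 2.28, Ibsp at 2.60, Alpl at 1.74, Clec3b at -3.83 and Ly6a at -2.94. Whether the dependence on length came from the RNA, the library preparation or the cells was not tested.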

How the data were processed

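RNA-seq counts of the 7 sorted clusters and of input bone marrow cells were used, with 1 library each. The authors deposited whole read counts per Ensembl gene, without normalization, together with the exon length of each gene (an other unit, bases, deposited beside the counts). The submitters' processing notes name Partek 2.2, TopHat2 and mm9, and the study's methods describe trimming, alignment by TopHat2 and RPKM, whereas the deposited coordinates match GRCm38. Strandedness, the tool that counted and the handling of reads shared between genes are not given in the sources used here.

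Lars2, mmu-mir-689-2 and ENSMUSG00000098178 (the Rn18s-rs5 locus) were left out, and RPKM was computed from the deposited counts and exon lengths with edgeR's TMM factors over the 7 sorted libraries. Cluster 2 and cluster 6 were compared as log2 of (RPKM of cluster 6 + 1) / (RPKM of cluster 2 + 1), over genes with RPKM above 2 and at least 50 counts in the same library in at least 1 of the 2, and a ratio above 2-fold was counted. The pseudocount of 1 understates the ratios of low genes. No test was run, since each population had 1 library. Ratios of RPKM have exact (Clopper-Pearson) 95% binomial intervals of the 2 counts and shares have Wilson intervals, and both describe counting alone, since reads copied by PCR were not told apart from molecules. The total count was 25349917 in cluster 2 and 31669132 in cluster 6, and between 12833648 and 33238133 over the sorted libraries.

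The comparison, its genes and the 37 gene lists were chosen with earlier results of these data known, and the list of ribosomal protein genes after its values had been seen. Named genes are the sort markers, Alpl, Ibsp, Runx2 and Cd24a, the 15 genes with the largest log2 ratio in each direction that have a symbol and are not immunoglobulin or T cell receptor segments, mitochondrial, ribosomal RNA, predicted or haemoglobin genes, the 10 genes with the highest RPKM in each library, and members of the lists. Other genes were named after their values were seen. Some genes that this rule names are not reported here. Symbols came from the deposited table of names and from RefSeq synonyms and positions, and promoters from RefSeq (GRCm38.p6). GC content was that of the longest coding transcript of each gene by gene ID. The alternatives comprised the total count, DESeq2 size factors (used for scaling only), TMM of the 2 libraries alone, the 3 loci kept, mitochondrial and haemoglobin genes left out, pseudocounts of 0.1 and 5, other filters, equal depth and thresholds of 1.5-fold and 4-fold, and, added after the data were seen, 2 alternatives on exon length. The calculations were tested on simulated counts. The software comprised edgeR 4.0.16 and DESeq2 1.42.0 in R 4.3.3, and scipy 1.17.1, pandas 2.3.3, numpy 2.4.6 and matplotlib 3.10.9 in Python 3.11.15. Single-cell and chromatin data of the study were not used here.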

Additional observations from a re-analysis of the deposited data

Results flagged for a closer look

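The loci left out of the comparison (Rn18s-rs5, Lars2 and mmu-mir-689-2) took 10.4% of all counts in the cluster 2 library, with 95% Wilson bounds of 10.37% and 10.39%. Their share was 1.41% in cluster 6 (1.40% to 1.41%) and 0.188% in the input cells (0.186% to 0.189%). They were looked at again because this signal lies outside the comparison and above the level of the input library. Lars2 alone took 7.38% in cluster 2 and 1.06% in cluster 6, mmu-mir-689-2 2.44% and 0.296%, and Rn18s-rs5 0.557% and 0.0496%. In the other 5 sorted libraries the 3 loci took from 0.274% (cluster 7) to 34.8% (cluster 5).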

How the results depend on the processing

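No paired analysis was possible because 1 library stood for each population, and no library could be left out. Of the 15 alternatives, 2 of them added after the data were seen, 6 moved the number of genes over 2-fold higher in cluster 6 or in cluster 2 by more than 1.5 times. Scaling by the total count gave 248 genes higher in cluster 6 and 1931 in cluster 2, in place of 869 and 847, and a pseudocount of 5 gave 323 and 403. Without a filter on low values 1276 genes were higher in cluster 2, and among genes with an exon length of at least 2000 bases 286 were. The thresholds themselves gave 2466 and 1852 genes at 1.5-fold and 72 and 104 at 4-fold. Under the 2000-base limit the median of the pericyte and smooth muscle list turned to 0.16 because 3 of its 6 genes were left, and that of the inflammatory list turned from -0.41 to 0.52 with 7 of 19. Centred on genes of like length, the medians of the Wnt, Notch and Hedgehog, niche, mast cell and interferon lists turned from between 0.023 and 0.27 to between -0.19 and -0.033. Of Alpl, Ibsp, Runx2, Cd24a, the genes with the largest ratios and the most abundant genes, 41 were past 2-fold. Of the 387 values recomputed for these 41, 0 had the other sign and 1, Ngp scaled by the total count (0.87), was no longer past 2-fold. Of 221 list members past 2-fold, 39 of 220 came within 2-fold when scaled by the total count. With a pseudocount of 5 these were 43 and centred on genes of like length 51, against at most 5 under each of the others. Under the 13 alternatives that keep the 2-fold threshold, 0 members changed sign. The signs of these members and of the 41 genes say little about stability, since both sets were chosen past 2-fold. Pseudocounts and filters cannot turn a sign, and scaling by the total count moved the median of all genes by -0.48.

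With a single library per population, sorting, RNA quality, library preparation and cells cannot be told apart, and how far the dependence on exon length came from any of these was not tested. Genes below the filter, among them Sost, Fgf23 and Axin2, were not resolved at this depth.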

Other observations

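Several genes outside the lists, named after their values were seen, were over 2-fold higher in both libraries than in each of the other 5. Il17b, a cytokine of the interleukin 17 family that cartilage expresses, had RPKM 86.2 in cluster 2 and 42.6 in cluster 6, against at most 1.88. Prkg2, a cGMP-dependent kinase of growth plate chondrocytes, had 34.6 in cluster 2 and 38.4 in cluster 6 against at most 3.48, Epyc (epiphycan, a proteoglycan of the growth plate) 90.1 in cluster 2 and 135 in cluster 6 against at most 9.72 and Rspo4, a secreted agonist of Wnt signalling, 13.9 in cluster 2 and 26.2 in cluster 6 against at most 0.759. Loxl4, a lysyl oxidase, was high in both and higher in cluster 6, with 38.5 in cluster 2 and 114 in cluster 6 against 4.62 to 7.15. Car12, a carbonic anhydrase, had 12.5 in cluster 2 and 31.2 in cluster 6 against at most 2.001.

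Genes with a predicted or clone-based name, pseudogenes and genes without a name stood mostly on the cluster 2 side. Of 750 such genes, 268 were over 2-fold higher in cluster 2 and 26 in cluster 6 (median log2 ratio -0.72), whereas of the 9673 others 579 and 843 were (median 0.17). These counts took no account of exon length, with which the ratio moved.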
